A study of Mus musculus with 6 samples.

Results

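Cadherins, protocadherins, neurexins, neuroligins and their synaptic relatives were examined in RNA bound to phosphorylated ribosomes of the mouse anterior hypothalamus. Members were all entries of the expression table whose symbol begins with Cdh or Cntn and a digit, Pcdh, Nlgn, Nrxn, Cntnap, Lrrtm, Slitrk, or Cadm and a digit. This gave 115 of 13724 gene entries. They comprised 17 cadherins, 11 non-clustered protocadherins, 54 clustered protocadherins, 3 neuroligins, 3 neurexins, 6 contactins, 7 contactin-associated proteins, 4 Lrrtm, 4 Cadm and 6 Slitrk genes.

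All libraries came from wild type C57Bl6/J mice given a warm challenge, and the labels number the challenges 1 to 3. Each challenge gave 1 library of total RNA (Input) and 1 library of RNA that was pulled down with an antibody to ribosomal protein S6 phosphorylated at sites 244 and 247 (IP). S6 becomes phosphorylated in active neurons, so the pull-down is meant to weight the IP towards their RNA. The labels give no group at another temperature, no age and no number of animals per library, and call the tissue preoptic neurons, although the whole anterior hypothalamus was dissected from 0.5 mm sections. Nothing in the labels says that the challenges used separate animals, so the p-values measure the spread between these libraries.

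These proteins hold neighbouring cells and synapses together. Neurexins sit on the presynaptic side and bind neuroligins and Lrrtm proteins across the cleft, while Slitrk proteins bind presynaptic receptor phosphatases. Cadherins and protocadherins bind copies of themselves on the next cell in a calcium-dependent way. Contactins and contactin-associated proteins act along axons, among other places at the nodes of Ranvier, and Cadm proteins (also called SynCAMs) are adhesion molecules of the immunoglobulin family.

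Values are RPKM, reads scaled to gene length and library size, so levels can be set side by side between genes. Summed RPKM was 374708 to 496125 per library, of which the members took 0.132% to 0.245%. The absolute depth is unknown, so no counting error can be given. IP 1 stood apart from the other libraries, at -49.0 on the second principal component against -10.0 to 19.9 for the rest. On the first component it stood at 10.3, between the inputs (-31.5 to -25.25) and IP 2 and IP 3 (36.7 and 41.3). Member calls are given with and without IP 1. Oligodendrocyte markers summed to 959 to 1069 RPKM in the inputs and 284 to 343 RPKM in the IP libraries, and 8 of 10 had less in IP (limma, adjusted p below 0.05). Of 10 endothelial markers 1 was listed, at 0.626 RPKM or less. Of 10 neuron markers 9 were listed, at summed levels of 4279 to 5732 RPKM in the inputs and 3806 to 7341 RPKM in the IP libraries. Snap25 made up most of these sums, and 0 of the 9 were called. All 10 astrocyte markers were listed, at summed levels of 91.8 to 161 RPKM in the inputs and 66.9 to 120 RPKM in the IP libraries, with 0 called. Their median log2 fold was -0.48, with 2 of the 10 positive. In a fit with the challenge number as a block 1 was lower, beside 3.99% of all genes. Without IP 1, 3 were lower, beside 10.2% of all genes. Markers of blood cells summed to 14.1 to 50.3 RPKM in the inputs and 202 to 567 RPKM in the IP libraries, and all 3 tested were called higher. The inputs thus held oligodendrocyte and astrocyte beside neuronal RNA, and more cells of a type and more RNA per cell cannot be told apart in such bulk samples.

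Nlgn2 and Pcdh17 were higher in IP than in input, and no member was lower. With limma on log2(RPKM + 1), 84 of the 115 members had at least 1 RPKM in 3 or more libraries and were tested. Of these, 2 passed an adjusted p of 0.05 (adjusted over all 12328 genes tested), or 2.38%, against 4.19% of all genes tested. By direction, 0.892% of all genes were higher and 3.29% lower. These 2 calls, both on the higher side, are too few to set the members apart from other genes. At an unadjusted p under 0.05, 14 of the 84 members and 3005 of all genes passed. The members' median log2 fold was 0.19 (0.14 for all 115 members with no filter), beside -0.18 for all genes tested. Of the 84, 55 had a positive fold, or 65.5%, beside 34.8% of all genes tested. With no filter, 75 of all 115 members had a positive fold. After each library was scaled to a common median the member median was 0.36 and that of all genes -0.01. That scaling also called Nrxn2, making 3 members, against 1.76% of all genes, and the calls over all genes were then 114 higher and 103 lower, in place of 110 and 406.

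Of the 84 tested members, 64 had at least 1 RPKM in all 6 libraries. None had passed the filter through the IP libraries alone, and 1 had passed through the inputs alone. Every IP library exceeded every input for 12 members (14.3%, against 6.85% of all genes tested), and every IP library was below every input for 6 (7.14%, against 23.5%). Within the 3 pairs of the same warm challenge, IP was above its own input in all 3 for 33 members (39.3%, against 14.0% of all genes) and below in all 3 for 12 (14.3%, against 37.5%). The median fold of the members on this scale was 0.14 in challenge 1, 0.16 in challenge 2 and 0.18 in challenge 3, beside -0.22, -0.17 and -0.17 for all genes.

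**Figure D1:**
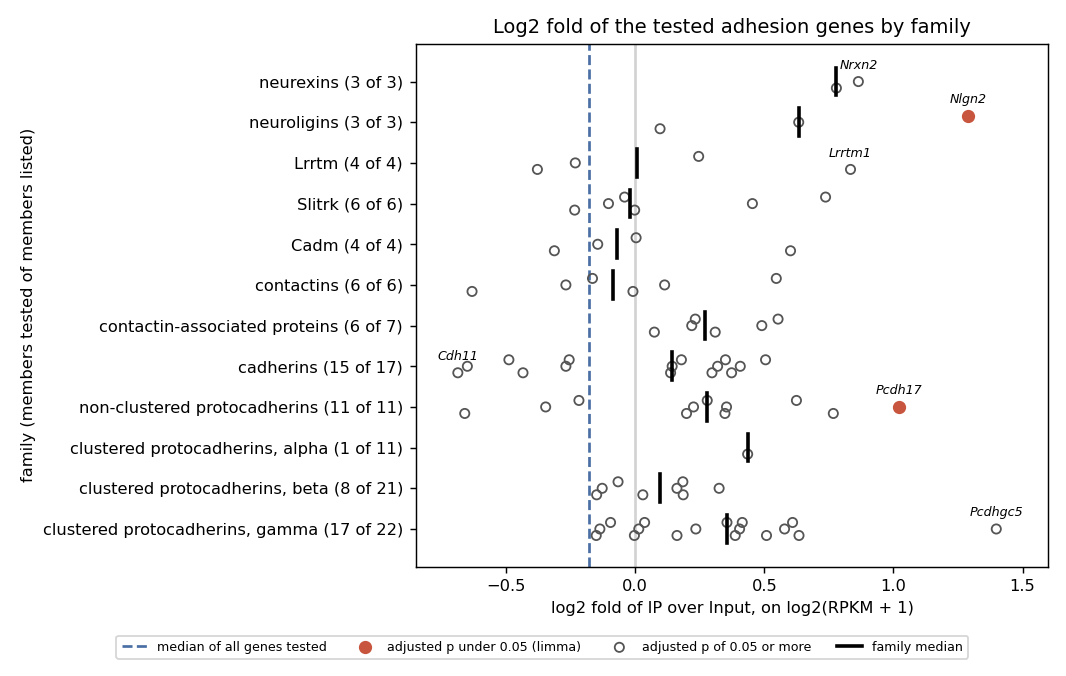
Log2 fold of IP over Input on log2(RPKM + 1) (horizontal axis) for 83 of the 84 tested members, in rows by family with the number tested of the number listed. Filled points passed an adjusted p of 0.05 (limma), black bars are medians over all tested members of a family and the dashed line is the median of all 12328 genes tested (-0.18). Nlgn2 and Pcdh17 are the filled points, and Pcdhgc5 lies farthest right without passing.

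Neuroligins, the postsynaptic partners of neurexins, were led by Nlgn2, whose protein is found mainly at inhibitory synapses. Nlgn2 stood at 19.5, 15.5 and 17.1 RPKM in inputs 1, 2 and 3 and at 37.1, 44.8 and 50.01 RPKM in IP 1, 2 and 3. The groups did not overlap, and the lowest IP value was 1.91 times its own input. Mean levels were 17.3 ± 2.02 RPKM for Input against 44.0 ± 6.47 RPKM for IP (SD over 3 libraries each). The log2 fold was 1.29 (SE 0.22, adjusted p = 0.0226, limma). The call held under each of the 8 settings that kept all libraries, the block of warm challenge numbers included. When 1 library was left out it held without IP 1 (adjusted p = 0.00956) and ended without input 1, 2 or 3 or IP 2 or 3 (adjusted p = 0.0688 to 0.121). Those 5 omissions left 21 to 94 genes called in the whole table, against 516.

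The other neuroligins did not pass. Nlgn1, which acts mainly at excitatory synapses, stood at 9.99, 6.70 and 10.5 RPKM in the inputs and 9.79, 14.03 and 21.4 RPKM in the IP libraries. IP 1 lay among the inputs, while IP 2 and IP 3 lay above them all, and the log2 fold was 0.63 (SE 0.30, adjusted p = 0.231, limma). Without IP 1 the fold was 0.89 (adjusted p = 0.0617, limma). Nlgn3, present at both kinds of synapse, stood at 19.9, 14.9 and 20.9 RPKM in the inputs and 25.8, 14.9 and 19.8 RPKM in the IP libraries, a log2 fold of 0.10 (adjusted p = 0.858). In the inputs Nlgn2 and Nlgn3 were at like levels, with a ratio of Nlgn2 to Nlgn3 of 0.818 to 1.03. In IP that ratio was 1.44, 3.00 and 2.52, above the inputs in each library. Such a ratio is unchanged when all RPKM of a library are multiplied by the same factor. Quantile normalization, and median scaling on log2(RPKM + 1), can change it. The ratios given here were chosen after the values were seen and carry no test.

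**Figure D2:**
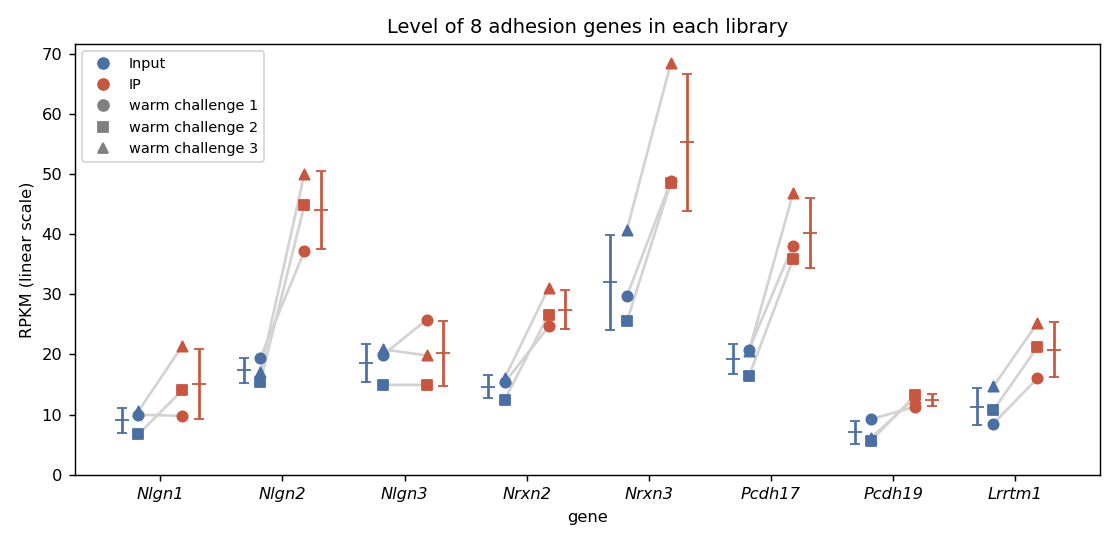
RPKM on a linear axis from 0 for 8 genes in each library, with Input in blue and IP in red, the warm challenge by symbol, and grey lines joining the libraries of a challenge. Bars beside the points are means ± SD (n = 3). Nlgn2, Nrxn2, Nrxn3, Pcdh17, Pcdh19 and Lrrtm1 have all IP points above all Input points, while those of Nlgn1 and Nlgn3 overlap.

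Among neurexins, the presynaptic receptors, 0 of 3 passed, and Nrxn2 and Nrxn3 had an unadjusted p under 0.05. Nrxn2 stood at 15.3, 12.5 and 16.1 RPKM in the inputs and 24.7, 26.6 and 31.1 RPKM in the IP libraries, with no overlap. Mean levels were 14.6 ± 1.89 and 27.4 ± 3.28 RPKM (SD over 3 libraries each), and the log2 fold was 0.86 (SE 0.21, adjusted p = 0.0534, limma). The call was made with challenges as blocks (adjusted p = 0.0487), after median scaling (0.0424), after quantile normalization (0.0497), with a filter of 5 RPKM (0.0497) and without IP 1 (0.0257). Nrxn2 therefore lay at the edge of the threshold, on one side or the other by setting.

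Nrxn3 was more abundant than Nrxn2. It stood at 29.7, 25.5 and 40.7 RPKM in the inputs and 48.8, 48.5 and 68.4 RPKM in the IP libraries, again without overlap. Its log2 fold was 0.78 (SE 0.25, adjusted p = 0.107, limma), and the block gave 0.0545. The neurexin genes also make short forms from internal promoters, which a single value per gene does not tell apart.

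**Figure D3:**
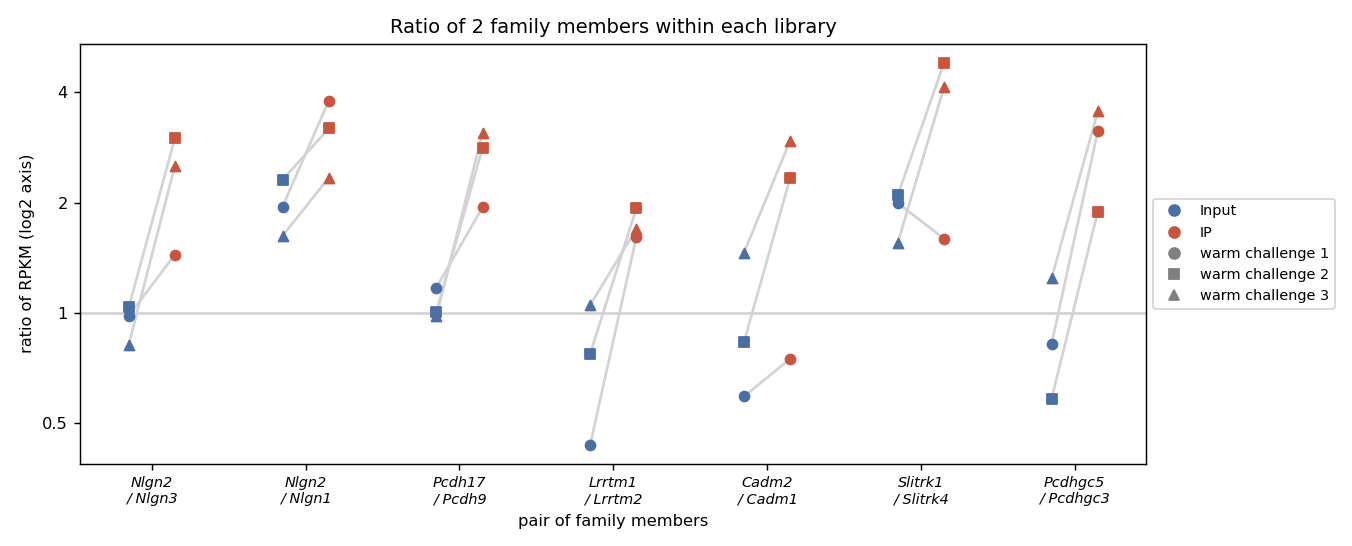
Ratio of RPKM of 2 members of a family within each library (log2 axis), Input in blue and IP in red, warm challenge by symbol, grey lines joining a challenge. The 3 IP points lie above the 3 Input points for the neuroligin, Pcdh17, Lrrtm1 and Pcdhgc5 ratios, and the groups overlap for Cadm2 over Cadm1 and Slitrk1 over Slitrk4. For Nlgn2 over Nlgn1 the gap is narrow, from 2.31 in the highest Input to 2.34 in the lowest IP library.

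The other postsynaptic families, Lrrtm and Slitrk, held 0 calls among 4 and 6 members tested, with medians of 0.01 and -0.02. Lrrtm1, a leucine-rich repeat ligand of neurexins, stood at 8.52, 10.7 and 14.7 RPKM in the inputs and 16.01, 21.2 and 25.2 RPKM in the IP libraries. Each IP library was above every input, and the ratio of IP to its own input was 1.88, 1.98 and 1.72. The log2 fold was 0.83 (SE 0.26, adjusted p = 0.0977, limma), with calls when the block was used (adjusted p = 0.0487) and without IP 1 (adjusted p = 0.0368). Lrrtm2, a close relative, stood at 19.5, 13.9 and 13.98 RPKM in the inputs and 9.95, 10.99 and 14.9 RPKM in the IP libraries, a log2 fold of -0.38 (adjusted p = 0.365). Lrrtm2 exceeded Lrrtm1 in inputs 1 and 2, and Lrrtm1 exceeded Lrrtm2 in every IP library, with ratios of Lrrtm1 to Lrrtm2 of 0.436, 0.772 and 1.05 in the inputs and 1.61, 1.93 and 1.69 in IP. Lrrtm3 and Lrrtm4 had log2 folds of 0.25 and -0.23.

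Slitrk1 was the most abundant Slitrk gene. It stood at 22.7, 16.9 and 22.1 RPKM in the inputs and 19.3, 44.8 and 48.1 RPKM in the IP libraries. Only IP 2 and IP 3 lay above the inputs, and the mean in IP was 37.4 ± 15.8 RPKM (SD, n = 3). The log2 fold was 0.74 (SE 0.34, adjusted p = 0.217, limma) over all libraries and 1.14 (adjusted p = 0.0164) without IP 1. Slitrk5 stood at 8.11, 7.07 and 10.8 RPKM in the inputs and 11.3, 11.3 and 13.8 RPKM in the IP libraries, a log2 fold of 0.45 (adjusted p = 0.255) with no overlap. Slitrk2, Slitrk3, Slitrk4 and Slitrk6 had log2 folds of -0.23 to 0.00, and at an unadjusted p under 0.05 no Slitrk gene and 1 Lrrtm gene passed.

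Of 4 Cadm genes, Cadm2 was called without IP 1 and the others were not. Cadm2 stood at 19.1, 17.1 and 30.3 RPKM in the inputs and 18.2, 37.9 and 52.3 RPKM in the IP libraries, a log2 fold of 0.60 (adjusted p = 0.360, limma) and, without IP 1, of 1.01 (adjusted p = 0.0483). Cadm1 stood at 32.4, 20.6 and 20.8 RPKM in the inputs and 24.4, 16.2 and 17.7 RPKM in the IP libraries, below its own input in each pair, with a log2 fold of -0.31 (adjusted p = 0.495). Cadm3, the most abundant of the family over all libraries, had means of 32.8 ± 4.25 and 29.7 ± 5.34 RPKM (SD, n = 3 each) and a log2 fold of -0.15 (adjusted p = 0.735). For Cadm4 the log2 fold was 0.00. No Cadm gene had an unadjusted p under 0.05.

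Contactins, which are anchored to the membrane by a lipid, had folds in both directions without a call, and 1 of 6 had an unadjusted p under 0.05. Cntn1, the most abundant of all members, stood at 44.4, 43.5 and 58.6 RPKM in the inputs and 57.2, 39.7 and 48.9 RPKM in the IP libraries, a log2 fold of -0.01 (adjusted p = 0.989, limma). Cntn4 stood at 4.098, 3.27 and 4.67 RPKM in the inputs and 5.77, 6.11 and 6.996 RPKM in the IP libraries, without overlap (log2 fold 0.55, adjusted p = 0.161). Cntn2, which oligodendrocytes and some neurons make and which joins axon and myelin beside the node, stood at 7.17, 6.32 and 7.49 RPKM in the inputs and 6.95, 3.12 and 3.17 RPKM in the IP libraries. IP 1 was within the inputs and the other IP libraries were well below them, so the log2 fold was -0.63 (adjusted p = 0.212) and, without IP 1, -0.94 (adjusted p = 0.0255). It was the only member lower in that fit. Myelin markers were lower in all IP libraries, as given above, and their part in the values of Cntn2 was not tested.

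Contactin-associated proteins had a positive fold for all 6 members tested of 7 listed, from 0.07 to 0.55, with 0 calls and 1 unadjusted p under 0.05. Over all genes tested 34.8% had a positive fold. With no filter 6 of the 7 were positive and 1, Cntnap3, was negative at -0.12. In the fit without IP 1 and in that without IP 3, 5 were positive and 1 was negative. Cntnap2, which clusters potassium channels beside the node and is made by neurons, stood at 22.4, 24.5 and 19.6 RPKM in the inputs and 26.2, 34.3 and 34.5 RPKM in the IP libraries. The groups did not overlap, and the log2 fold was 0.49 (SE 0.22, adjusted p = 0.201, limma). Cntnap5a stood at 3.90, 3.91 and 7.62 RPKM in the inputs and 5.73, 6.94 and 11.3 RPKM in the IP libraries, above its own input in each pair (log2 fold 0.55, adjusted p = 0.313). Cntnap1, the partner of Cntn1 at the paranode, had a log2 fold of 0.22.

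**Figure D4:**
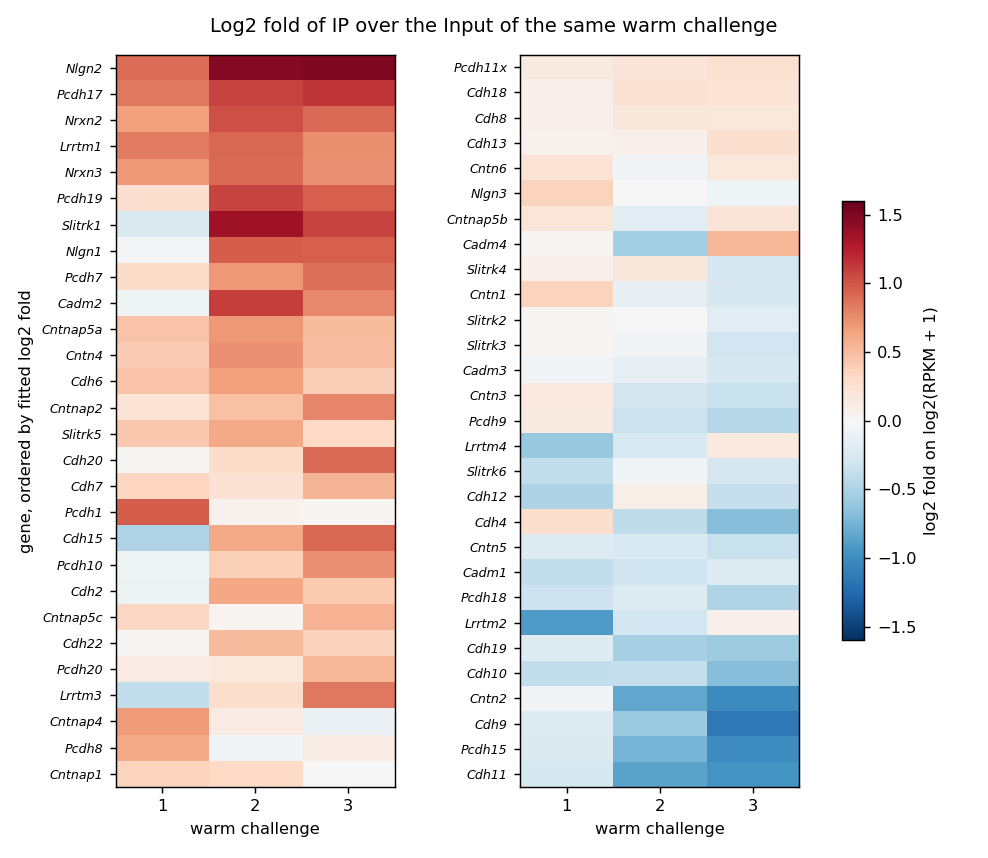
Log2 fold of each IP library over the Input of the same warm challenge, on log2(RPKM + 1), for 57 of the 58 tested members outside the protocadherin clusters, ordered by their fitted fold. Red is higher and blue lower in IP. Nlgn2, Pcdh17, Nrxn2, Lrrtm1 and Nrxn3 are red in all 3 columns, while Slitrk1, Nlgn1 and Cadm2 are red in challenges 2 and 3 only.

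Non-clustered protocadherins held the other call. Pcdh17, a delta protocadherin of synapses, stood at 20.8, 16.4 and 20.6 RPKM in the inputs and 38.1, 35.8 and 46.8 RPKM in the IP libraries. The groups did not overlap, and each IP library held 1.83 to 2.27 times its own input. Mean levels were 19.3 ± 2.48 and 40.2 ± 5.78 RPKM (SD over 3 libraries each), and the log2 fold was 1.02 (SE 0.22, adjusted p = 0.0388, limma). The call held under each of the 8 settings that kept all libraries and without IP 1 (adjusted p = 0.0222), and it ended without input 1, 2 or 3 or IP 2 or 3 (adjusted p = 0.0887 to 0.175). Pcdh9, a relative with a like input level, had means of 18.4 ± 2.40 and 15.8 ± 3.53 RPKM. The ratio of Pcdh17 to Pcdh9 was 0.981 to 1.17 in the inputs and 1.94 to 3.10 in IP.

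Pcdh19, another delta protocadherin and a gene of X-linked epilepsy, stood at 9.25, 5.69 and 6.14 RPKM in the inputs and 11.3, 13.2 and 12.8 RPKM in the IP libraries, without overlap. Its log2 fold was 0.77 (SE 0.23, adjusted p = 0.0905, limma). Pcdh7 stood at 10.2, 10.1 and 14.2 RPKM in the inputs and 12.8, 16.8 and 27.2 RPKM in the IP libraries (log2 fold 0.62, adjusted p = 0.223). On the other side, Pcdh15, known from the tip links of hair cells and made in the brain by oligodendrocyte precursors, stood at 2.94, 3.01 and 4.69 RPKM in the inputs and 2.35, 1.40 and 1.84 RPKM in the IP libraries. Every IP value was below every input, with a log2 fold of -0.66 (adjusted p = 0.138). Markers of oligodendrocyte precursors summed to 77.5 to 89.3 RPKM in the inputs and 54.8 to 85.6 RPKM in the IP libraries, with 2 higher and 1 lower of 7 tested. The lower one was Olig1, the largest part of the input sum, at means of 49.4 and 17.8 RPKM. The higher ones were Gpr17, at means of 4.35 and 13.4 RPKM, and Tnr, at 5.05 and 17.05 RPKM. The part of these markers' cells in the values of Pcdh15 was not tested. The other 7 non-clustered protocadherins had log2 folds of -0.35 to 0.35.

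The bases just before the starts of the called genes are shown so that they can be read beside their values. They are the 250 bases before the RefSeq start of each gene (build GRCm38.p6), Nlgn2 on the minus strand at chr11:69837785-69838034 and Pcdh17 on the plus strand at chr14:84443313-84443562, each written 5′ to 3′ along the gene. Capitals mark a match to GCGGGGGCG, a form of the site of EGR factors, on either strand.
Nlgn2: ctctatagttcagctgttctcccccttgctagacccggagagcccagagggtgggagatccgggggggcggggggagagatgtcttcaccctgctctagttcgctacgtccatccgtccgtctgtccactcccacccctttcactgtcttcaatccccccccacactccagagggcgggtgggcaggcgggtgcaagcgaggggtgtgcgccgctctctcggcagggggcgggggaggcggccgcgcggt
Pcdh17: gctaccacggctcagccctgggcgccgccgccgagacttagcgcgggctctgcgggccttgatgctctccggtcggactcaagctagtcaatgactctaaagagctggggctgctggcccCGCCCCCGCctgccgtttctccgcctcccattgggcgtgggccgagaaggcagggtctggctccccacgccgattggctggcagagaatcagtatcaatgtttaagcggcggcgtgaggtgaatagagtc
Both windows were rich in G and C, at 67.6% for Nlgn2 and 64.8% for Pcdh17, with 18 and 21 CG pairs. Pcdh17 held 1 match, from 130 to 122 bases before the start, and Nlgn2 held 0. Matches to GCGGGGGCG were present in 2.57% of 32851 such windows in the table. The letters of the cAMP response element TGACGTCA, its core TGACG, the AP-1 site TGANTCA and the EGR form GCGTGGGCG were searched on both strands too, the core being part of the full element. Neither window held them, while they were present in 1.55%, 17.8%, 6.75% and 0.536% of all windows. Such matches describe letters and show no binding.

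Cadherins split in both directions without a call. At an unadjusted p under 0.05, 4 of 15 passed, beside 3005 of all 12328 genes tested. Of 15 tested, 9 had a positive and 6 a negative log2 fold (median 0.14, range -0.69 to 0.50). Cdh9, Cdh10, Cdh11 and Cdh19 lay below every input in each IP library, which is 4 of 15, beside 23.5% of all genes tested. This share is near the background. Cdh11 stood at 24.1, 27.3 and 38.9 RPKM in the inputs and 20.0, 14.6 and 19.6 RPKM in the IP libraries, a log2 fold of -0.69 (SE 0.25, adjusted p = 0.132, limma). It was the most abundant cadherin over all libraries, with means of 30.1 ± 7.79 and 18.1 ± 2.99 RPKM (SD, n = 3 each). Cdh9 stood at 2.31, 3.40 and 3.51 RPKM in the inputs and 1.85, 1.92 and 1.03 RPKM in the IP libraries (log2 fold -0.65, adjusted p = 0.143). For Cdh10 the log2 fold was -0.49 and for Cdh19 -0.43. Cdh19 passed the filter through the inputs alone, where it was higher, so its place on the lower side carries no weight.

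Folds of other cadherins were mostly positive. Cdh6 was above every input in each IP library, with a log2 fold of 0.50 (adjusted p = 0.178, limma), at means of 1.08 ± 0.283 and 1.93 ± 0.193 RPKM (SD, n = 3 each). Cdh20, Cdh7 and Cdh22 had log2 folds of 0.41, 0.37 and 0.30, Cdh18 and Cdh8 of 0.18 and 0.14, and Cdh12 of -0.26. Cdh2, the N-cadherin of excitatory synapses, stood at 21.5, 12.95 and 16.1 RPKM in the inputs and 20.2, 20.5 and 21.8 RPKM in the IP libraries. IP 1 was below its own input and the other IP libraries above theirs (log2 fold 0.32, adjusted p = 0.434). Cdh13, a cadherin with a lipid anchor, had means of 19.6 ± 2.61 and 21.9 ± 4.59 RPKM (log2 fold 0.14). Meninges and mural cells also make Cdh11, and of their 10 markers 5 were listed, at summed levels of 9.45 to 13.7 RPKM in the inputs and 2.67 to 8.12 RPKM in the IP libraries. Their part in the values of Cdh11 was not tested.

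Clustered protocadherins, whose many isoforms give neurons individual surface identities, were mostly near the low end of the table. Of 54 listed, 26 passed the filter, namely 1 of 11 alpha, 8 of 21 beta and 17 of 22 gamma genes. None was called, and 1 had an unadjusted p under 0.05. The alpha and gamma isoforms of a cluster share constant exons and differ in their first exon, and how reads on shared exons were counted is not given in the sources used here, so values of single isoforms are uncertain. Median levels of the 11 alpha genes were 0.588 to 0.770 RPKM in the inputs and 0.758 to 0.823 RPKM in IP. The 21 beta genes had medians of 0.680 to 1.20 RPKM in the inputs and 0.790 to 1.23 RPKM in IP, all under 5 RPKM in every library. For the 22 gamma genes, medians were 1.57, 1.18 and 1.43 RPKM in the inputs and 2.47, 1.09 and 2.12 RPKM in the IP libraries. IP 1 and IP 3 thus lay above every input and IP 2 below every input. The median log2 fold was 0.36 over the 17 gamma genes tested and 0.12 over the 15 tested without IP 1.

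**Figure D5:**
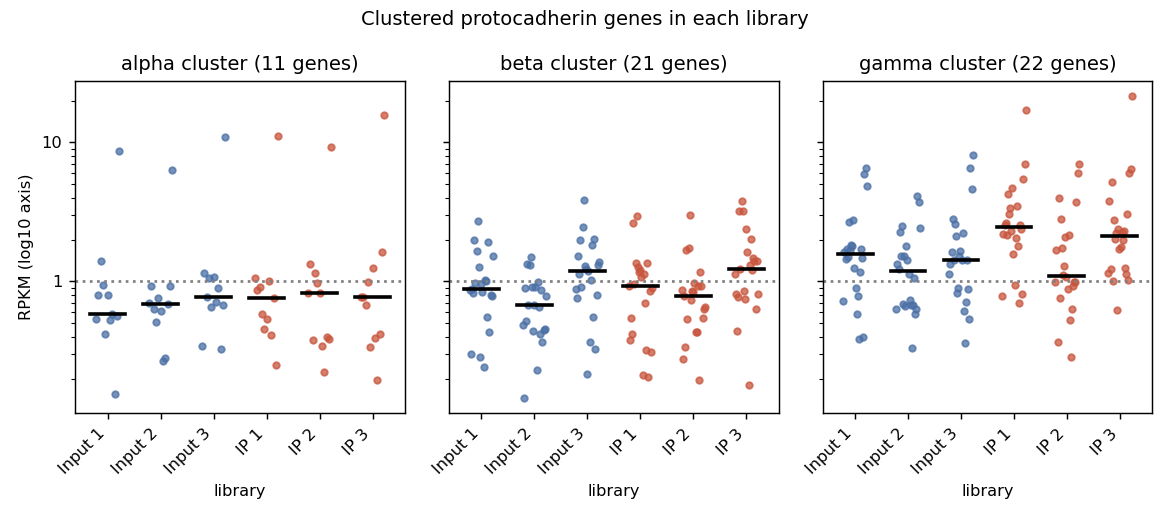
RPKM on a log10 axis of every listed gene of the alpha, beta and gamma protocadherin clusters in each library, Input in blue and IP in red. Black bars are medians and the dotted line is 1 RPKM, the level of the filter. The gamma medians of IP 1 (2.47) and IP 3 (2.12) lie above the inputs, and most alpha and beta genes lie around 1 RPKM or below.

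The last gene of the gamma cluster, Pcdhgc5, had the largest fold of all tested members with all libraries and a pseudocount of 1. With a pseudocount of 5 its log2 fold was 0.97, against 1.13 for Nlgn2, and Nlgn2 also had the larger fold without input 2, IP 1 or IP 3. Pcdhgc5 stood at 4.84, 2.41 and 8.09 RPKM in the inputs and 17.2, 7.06 and 21.6 RPKM in the IP libraries. IP 2 was below input 3, so the groups overlapped, yet each IP library was above its own input by 3.56, 2.93 and 2.66 times. Accordingly the log2 fold of 1.40 (SE 0.44) had an adjusted p of 0.0986 without and 0.0235 when challenges were blocked (limma). It also missed the threshold in each omission of 1 library (adjusted p = 0.0755 to 0.298). Pcdhgc3, another gene of the C type, was below its own input in each pair, at means of 5.51 ± 1.24 and 5.10 ± 1.21 RPKM (SD, n = 3 each). The ratio of Pcdhgc5 to Pcdhgc3 was 0.583 to 1.24 in the inputs and 1.89 to 3.55 in IP. Pcdhgc4, also of the C type, was above its own input in each pair. It stood at 6.55, 3.735 and 4.62 RPKM in the inputs and 7.06, 5.997 and 6.46 RPKM in the IP libraries (log2 fold 0.36, adjusted p = 0.393, limma).

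Over the gamma cluster, 10 of 22 genes were above their own input in all 3 pairs and 1 was below in all 3, beside 13.4% and 37.5% of all 13724 entries. Taken by library, 15 of the 22 were above every input in IP 1, 4 in IP 2 and 14 in IP 3, beside 21.0%, 24.0% and 24.0% of all entries, and for 16 of the 22 IP 2 was the lowest IP library. Pcdhga12 stood at 1.72, 2.27 and 2.83 RPKM in the inputs and 2.62, 4.0 and 5.23 RPKM in the IP libraries (log2 fold 0.58, adjusted p = 0.213, limma). Pcdhgb2 and Pcdhgb4, which did not pass the filter, showed the split between IP libraries most plainly. For Pcdhgb2 the IP values were 3.50, 0.531 and 2.00 RPKM against inputs of 0.612 to 0.780 RPKM. For Pcdhgb4 they were 1.79, 0.285 and 2.31 RPKM against 0.332 to 0.385 RPKM. In the alpha cluster Pcdhac2 was the abundant gene, at 8.72, 6.33 and 10.9 RPKM in the inputs and 11.1, 9.28 and 15.8 RPKM in the IP libraries, above its own input in each pair (log2 fold 0.44, adjusted p = 0.354). The 8 beta genes tested had log2 folds between -0.15 and 0.32.

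Set side by side, the family medians were 0.78 for neurexins, 0.63 for neuroligins, 0.28 for non-clustered protocadherins, 0.27 for contactin-associated proteins, 0.19 for clustered protocadherins, 0.14 for cadherins, 0.01 for Lrrtm, -0.02 for Slitrk, -0.07 for Cadm and -0.09 for contactins. Genes of a family are not replicates, and the families were not tested against each other. With all libraries and no scaling the 10 medians lay above that of all genes tested (-0.18). That order failed for contactins without input 1 (-0.18 against -0.16) and without input 2 (-0.18 against -0.17), for Slitrk without input 2 (-0.19 against -0.17) and for Lrrtm without IP 3 (-0.27 against -0.19). The clustered median rests on the 26 genes that passed the filter and was 0.076 over all 54. After median scaling contactins had a median of 0.087 and Cadm of 0.10, and without IP 3 that of cadherins was -0.020, so these signs depend on the setting. The spread within families was wide: the folds of neuroligins ran from 0.10 to 1.29, those of Lrrtm from -0.38 to 0.83 and those of contactins from -0.63 to 0.55.

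Blocking by challenge number called 5 members, each higher in IP, or 5.95%, against 5.32% of all genes (1.33% higher and 3.99% lower). The 5 were Lrrtm1, Nlgn2, Nrxn2, Pcdh17 and Pcdhgc5. Without IP 1, 6 of 80 members tested were higher and 1 lower, or 8.75%, against 13.8% of all genes (3.62% higher and 10.2% lower). Those higher were Cadm2, Lrrtm1, Nlgn2, Nrxn2, Pcdh17 and Slitrk1, and Cntn2 was lower. Leaving out any other single library called 0 members. In those fits 8 to 14 of 79 to 83 members had an unadjusted p under 0.05, beside 1879 to 2493 of 12054 to 12224 genes.

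Further adhesion genes outside these families and their intracellular partners were read from the same fit. Of 41 genes tested that encode other transsynaptic partners (latrophilins, receptor phosphatases, calsyntenins, cerebellins and the like), 1 was higher and 0 lower, with a median log2 fold of 0.50 and a positive fold for 35, beside 0.892% higher, 3.29% lower and 34.8% positive over all genes. Without IP 1, 9 were higher and 1, Il1rap, was lower, beside 3.62% and 10.2% of all genes. Clstn3, calsyntenin 3, stood at 16.1, 12.8 and 13.3 RPKM in the inputs and 58.1, 25.9 and 30.9 RPKM in the IP libraries, without overlap. The log2 fold was 1.30 (SE 0.30, adjusted p = 0.0459, limma), and 0.97 without IP 1, its highest library (adjusted p = 0.0241). That call ended without input 1, 2 or 3 or IP 2 or 3 (adjusted p = 0.0709 to 0.174), with no filter (0.0506), with no trend (0.0512) and after quantile normalization (0.0564). Of 23 other immunoglobulin adhesion genes 0 passed (median 0.15). At an unadjusted p under 0.05, 6 passed, beside 3005 of all 12328 genes tested. Blocking by challenge called Alcam and Nfasc as higher (adjusted p = 0.0452 and 0.0467, limma), beside 1.33% of all genes. Leaving out IP 1 called Mcam and Ncam2 as lower (adjusted p = 0.0404 and 0.0344, limma), beside 10.2% of all genes. Nfasc and Ncam2 were picked for these calls after their values were seen. Alcam had means of 35.6 ± 5.23 and 69.4 ± 17.2 RPKM (SD, n = 3 each; log2 fold 0.93, adjusted p = 0.0706), and Mcam, an adhesion gene of vessel cells, 2.46 ± 0.137 and 0.861 ± 0.546 RPKM (log2 fold -0.94, adjusted p = 0.0738).

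Catenins, which tie cadherins to actin, and the scaffold proteins under neurexins and neuroligins formed the last list. Of 29 tested, 0 were higher and 1 lower, with a median of -0.06, beside 0.892% higher and 3.29% lower over all genes. Without IP 1, Dlg4 was higher (adjusted p = 0.0360, limma) and Ctnna1, Lin7c and Apba1 were lower (0.0288, 0.0147 and 0.0439), beside 3.62% and 10.2% of all genes. Ctnna1, an alpha catenin, stood at 16.6, 15.4 and 20.1 RPKM in the inputs and 9.08, 9.64 and 7.23 RPKM in the IP libraries, a log2 fold of -0.93 (SE 0.22, adjusted p = 0.0465, limma, and 0.0547 with the block). Its IP values were all below its inputs. The call also ended after median scaling (adjusted p = 0.1004), after quantile normalization (0.0992), with no filter (0.0544), with no trend (0.0516) and without input 1, 2 or 3 or IP 2 or 3 (0.0963 to 0.174).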

How the data were processed

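Linear RPKM values per gene, in 1 column for each library, were deposited by the authors. Reads were placed on mm9 according to the submitters' processing notes. Aligner, counter and annotation: not given in the sources used here. Amplification used an Ovation kit, per the labels' protocols. Every listed value lies above 0.1 RPKM (smallest 0.101), so genes at or below that level in any library are missed. The table holds no counts. At the best-fitting relative depths at most 17.4% of ratios between values under 0.6 RPKM came within 1% of a quotient of integers up to 4, so depth was not derived and its precision is unknown.

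Members were matched by symbol, and 12 entries of the table repeat another entry's symbol, none of them a member. Values were analysed as log2(RPKM + 1), keeping genes that reached 1 RPKM in 3 libraries. A fold on this scale understates changes of low genes. The contrast of IP and Input was fitted with limma 3.58.1 (mean-variance trend, two-sided, no block) in R 4.3.3, adjusted by Benjamini-Hochberg over all genes tested, with a threshold of 0.05. The script was tested on simulated data. Python 3.11.15, numpy 2.4.6, pandas 2.3.3 and matplotlib 3.10.9 made the summaries and plots. Families were described by counts and medians.

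Input and IP of a warm challenge share its number in the labels. They were taken as paired for the folds within a challenge and the fit with the block, while the main fit was unpaired. Deviations from group means correlated by 0.05, 0.61 and 0.27 across genes within pairs 1, 2 and 3. Those of IP 1 correlated more with input 3 (0.18) than with input 1. The members, lists and tests were chosen with earlier results of these data known. Named were neuroligins and neurexins, members called in the main fit, with the block or without IP 1, and per family the member with the highest mean RPKM and the 2 with the smallest p. From each partner list up to 4 called genes were named, or the 2 with the smallest p. Other genes were named after their values were seen, and 1 member is not reported here. Promoter windows come from RefSeq (44 members matched) and are on another build than the table. Alternatives were pseudocounts of 0.1 and 5, no filter and a filter of 5 RPKM, median scaling, quantile normalization, the block, no trend, the omission of each library and, added after seeing the data, the omission of IP 1 with median scaling.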

Additional observations from a re-analysis of the deposited data

How the results depend on the processing

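The deposited values hold no depth, and 3 libraries a group limit what a missing call can show. Genes called over the whole table were 516, and 217 after median scaling, 253 after quantile normalization, 21 to 1693 without 1 library and 1140 without IP 1 with median scaling. Members called were 2, and 5 with the replicate block (challenge numbers), 0 to 7 without 1 library and 13 without IP 1 with median scaling. In that last fit, added after the data were seen, 12 of 80 members tested were higher and 1 lower. Beside them, 579 of all 12233 genes tested were higher and 561 lower. The block added Lrrtm1, Nrxn2 and Pcdhgc5 and changed no other call of the members.

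The member median of 0.19 was 0.25 with a pseudocount of 0.1, 0.12 with one of 5, 0.14 with no filter, 0.25 with a filter of 5 RPKM, 0.36 after median scaling, 0.42 after quantile normalization, 0.10 to 0.28 without 1 library and 0.29 without IP 1 with median scaling. Family medians moved by more than the spread between pairs as follows. With a pseudocount of 0.1 they were 0.27 for clustered protocadherins and 0.36 for contactin-associated proteins, and with one of 5 they were 0.17 for non-clustered protocadherins, 0.084 for clustered protocadherins and 0.16 for contactin-associated proteins. With no filter that of clustered protocadherins was 0.076. A filter of 5 RPKM gave 0.35 for non-clustered protocadherins, 0.40 for clustered protocadherins, 0.36 for contactin-associated proteins and 0.23 for Slitrk. Median scaling gave 0.32 for cadherins, 0.45 for non-clustered and 0.36 for clustered protocadherins, 0.95 for neurexins, 0.45 for contactin-associated proteins and 0.15 for Slitrk, and quantile normalization 0.31, 0.46, 0.50, 0.52 and 0.19 for the same families without neurexins. Without 1 library the medians ran from -0.020 to 0.18 for cadherins, 0.12 to 0.36 for non-clustered protocadherins and 0.14 to 0.29 for clustered protocadherins. They ran from 0.62 to 0.93 for neurexins, 0.21 to 0.38 for contactin-associated proteins and -0.19 to 0.22 for Slitrk. The medians of contactins (-0.18 to 0.067), Lrrtm (-0.27 to 0.15) and Cadm (-0.16 to 0.067) stayed within that spread when 1 library was left out. Without IP 1 and with median scaling they were 0.35 for cadherins, 0.34 for clustered protocadherins, 1.06 for neuroligins, 1.03 for neurexins and 0.38 for contactin-associated proteins.

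After median scaling 14 of the 84 tested members changed sign, 0 of them called, among them Slitrk2 (0.13), Slitrk3 (0.071), Slitrk4 (0.17) and Pcdhgc3 (0.079). Of the 24 members named by rule, 3 turned under some setting, and these were called under none. Cadm3 was 0.029 after median scaling. Cntn1 was 0.17 after median scaling, 0.034 after quantile normalization, 0.037 without IP 1 with median scaling, and -0.13 to 0.13 without 1 library, above 0 without input 3 or IP 2. Nlgn3 was -0.089 to 0.29 without 1 library, below 0 without input 2 (-0.044) or IP 1. The cause was not tested.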
